A study of Rattus norvegicus with 6 samples.

Results

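Cellular iron handling was examined through 9 genes whose products take up, store, export or sense iron or protect membranes from iron-driven damage. The genes were Tfrc, Slc11a2 and Slc39a14 for uptake, Fth1 and Ftl1 for storage, Slc40a1 and Hamp for export and its control, Ireb2 for sensing, and Gpx4 for defence against lipid peroxides. They were taken by symbol, by a rule that uses no measured value, from 32623 genes in the deposited table, and all 9 were found there. The choice of the genes was made with earlier results of these data known. Expression was measured by RNA sequencing of myocardial tissue of male wild-type rats. The 3 sham samples came from animals for which no tying of an artery is described, and the 3 ischemia samples from animals whose left anterior descending coronary artery was tied. Both groups carried the time label of 30 min, and the samples are called sham 1 to 3 and ischemia 1 to 3 after their replicate numbers. Strain, age and the part of the heart that was sampled are not given in the labels, and since whole tissue was sequenced, fewer cells of a type and less RNA per cell cannot be told apart.

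Iron enters most cells bound to transferrin through the transferrin receptor, or unbound through metal transporters of the membrane. It is stored in ferritin, a hollow shell of heavy and light chains, and leaves the cell only through ferroportin, which the hormone hepcidin removes from the surface. Iron regulatory proteins bind hairpins in the mRNAs of the transferrin receptor, the ferritins and ferroportin, so that much of this control acts on mRNA stability and translation. Free iron promotes the peroxidation of membrane lipids, and the cell death that follows from it, ferroptosis, is studied in the ischemic and reperfused heart.

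The libraries held between 68529126 and 79591989 counts. All 8 markers of ventricular cardiomyocytes were detected in each library, with a summed FPKM (fragments scaled to gene length and library size) of 25001 to 41205 in sham and 11833 to 22431 in ischemia. The libraries also differed in genes of other cell types. The summed FPKM of 5 atrial genes reached 48344 (sham 1) and 39345 (sham 3) but 215.5 in sham 2, and it was 9610, 2078 and 1279 among the ischemia samples. In sham 1 and sham 3 the ventricular myosin light chain gene Myl2 was also low, at 366.0 and 346.4 FPKM, where sham 2 had 2795 and the ischemia samples had between 594.2 and 1315. Of 8 neutrophil genes, 7 were higher in every ischemia sample than in every sham sample, and their sum lay between 7.72 and 18.4 in sham and between 501.0 and 3865 in ischemia, with the highest value in ischemia 2. The sum of 8 macrophage genes overlapped, at 145.9 to 211.6 in sham and 187.1 to 303.5 in ischemia, and of the 8 genes 4 were higher and 1 (C1qa) was lower in every ischemia sample. The sum of 8 erythroid genes overlapped as well, at 4437 to 8135 against 5233 to 10156, and 1 of the 8 (Hba-a3) was lower in every ischemia sample. So did the sum of 5 fibroblast genes, at 344 to 1149 in sham and 179 to 439 in ischemia. Of these 5 genes 2 (Col1a1 and Lum) were lower in every ischemia sample. On the Y-linked genes Ddx3, Eif2s3y and Kdm5d sham 1 had 4 counts and every other sample between 2780 and 7958, while all rats were labelled male. The part of these differences in the results below was not tested, and the calls are also given without sham 1 and with sham 2 as the only sham sample.

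Of the 9 genes, Slc39a14 rose in ischemia and the other 8 did not pass the test. Counts were compared with the quasi-likelihood test of edgeR, fitted over 13964 genes with an average FPKM of at least 0.5, among which all 9 genes were found. The threshold was an adjusted p of 0.05 over all tested genes, and 6.71% of them passed, 5.18% as higher and 1.53% as lower. At an unadjusted p under 0.05 there were 4 of the 9 genes (Slc39a14, Tfrc, Ireb2 and Ftl1) and 32.4% of all tested genes. The log2 fold change was above 0 for 7 of the 9 genes and their median was 0.48, while the median over all tested genes was -0.0015. In FPKM, 5 of the 9 genes had groups that did not overlap (Slc39a14, Fth1, Slc40a1 and Ireb2 higher and Tfrc lower in ischemia), where 38.6% of all tested genes did so, 23.6% as higher and 15.0% as lower. After scaling of the libraries by the trimmed mean of M-values (TMM), which edgeR uses, 3 of the 9 remained apart (Slc39a14, Ireb2 and Tfrc), against 41.1% of all genes. No gene of the 9 had a log2 fold change beyond 2 together with an unadjusted p under 0.01, a stricter rule that 4.65% of all tested genes met. A fit with sham 2 as the only sham sample assumes that this sample varies like the others. In that fit the log2 fold changes of the 9 genes ran from -1.28 (Tfrc) to 6.25 (Hamp), with Slc39a14 at 1.44.

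**Figure D1:**
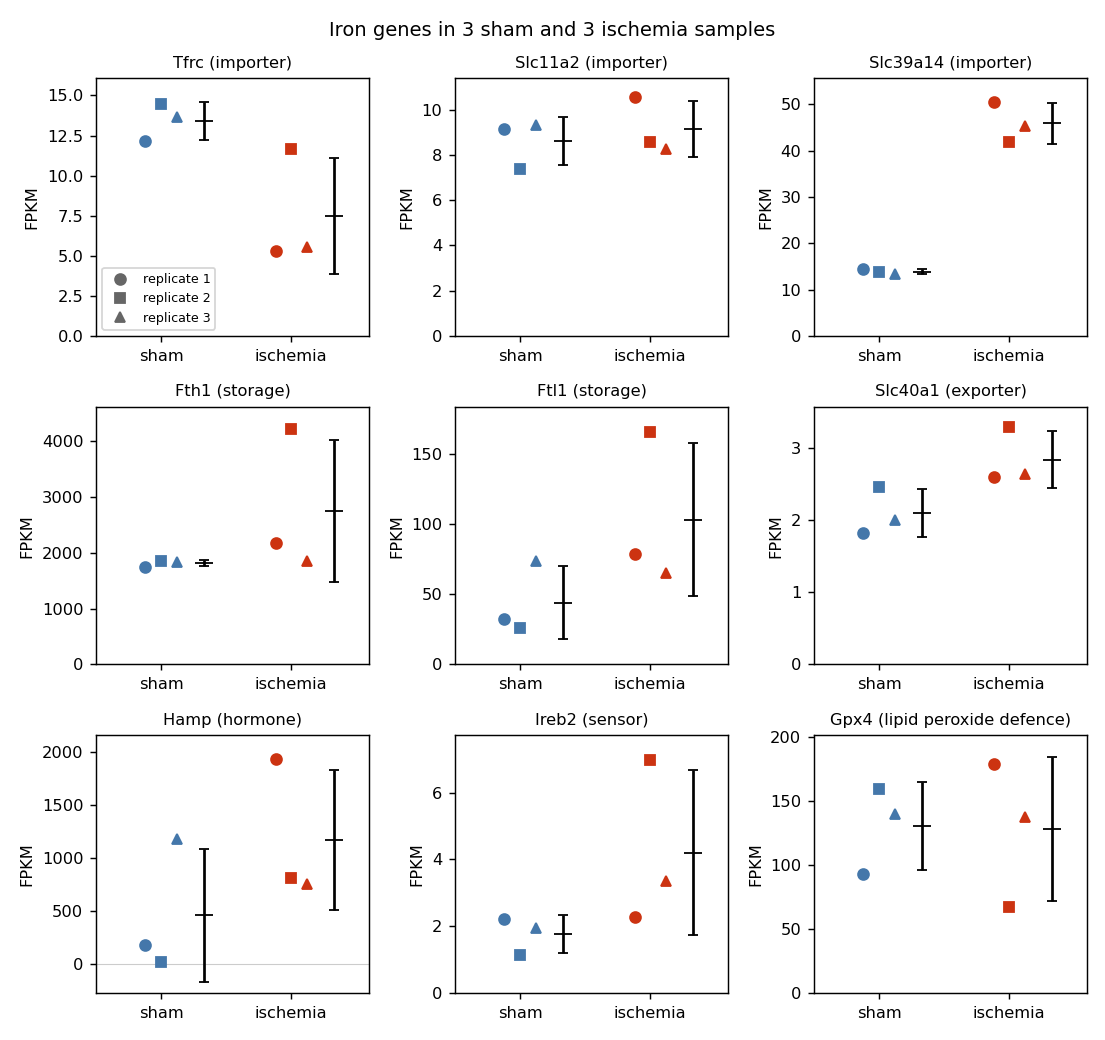
FPKM of the 9 iron genes in each sample, with sham on the left (blue) and ischemia on the right (red) of each panel, one marker shape per replicate number, and a black bar for the mean and SD of 3 samples. Slc39a14 sits between 13.4 and 14.5 in sham and between 41.8 and 50.6 in ischemia, Tfrc is lower in each ischemia sample, and Hamp spreads from 12.4 to 1171 within sham.

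**Figure D2:**
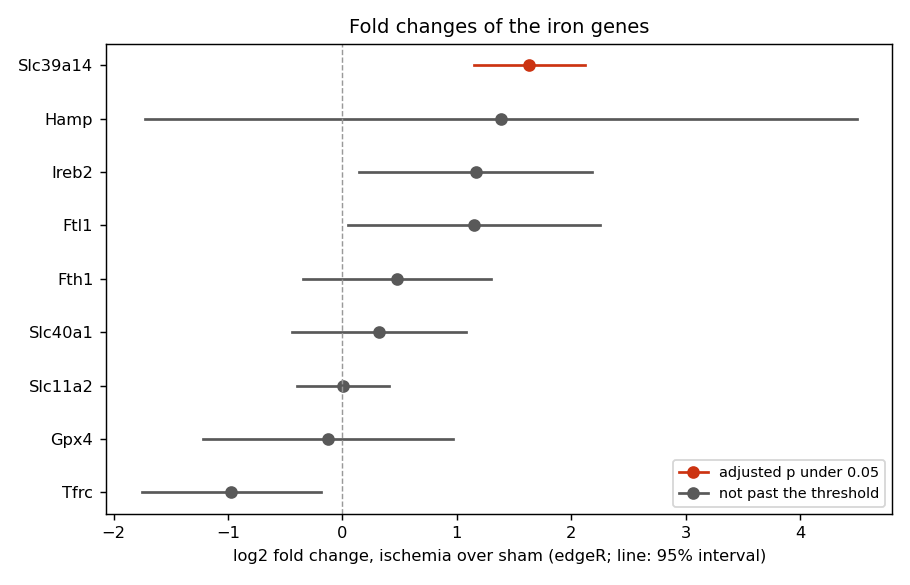
Log2 fold change of ischemia over sham for each gene (edgeR, x axis), with its 95% interval as a line. The interval of Slc39a14, from 1.15 to 2.12, is narrow and belongs to the only gene past the adjusted threshold (red), while that of Hamp runs from -1.72 to 4.496.

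Slc39a14, on the minus strand of chromosome 15 (51982982 to 52029816), encodes ZIP14, a membrane transporter of zinc, manganese and iron that is not bound to transferrin. (The build of the file's positions is not stated.) Its FPKM in the sham samples was 14.5, 13.8 and 13.4, and in the ischemia samples it was 50.6, 41.8 and 45.2. The spread was small in both groups, and the lowest ischemia sample lay far above the highest sham sample. The sham mean was 13.9 ± 0.58 and the ischemia mean 45.9 ± 4.42 (SD, n = 3 each), from counts of 4579 to 5267 and 14799 to 19685. The log2 fold change was 1.63 ± 0.20 (SE), a 3.10-fold rise with a 95% interval of 2.22 to 4.34, and the adjusted p from edgeR was 0.0272. The exact permutation test of the FPKM values gave p 0.1, the smallest possible with 3 samples against 3. The summed neutrophil genes were at 504.9, 3865 and 501.0 FPKM in ischemia 1 to 3, and their part in the rise of Slc39a14 was not tested. The size of the rise depended little on any sample, with log2 fold changes of 1.54 to 1.74 when each was left out, but the edgeR call did. The adjusted p from edgeR was 0.157 without sham 1, 0.0819 without sham 2, 0.125 without sham 3 and 0.110 without ischemia 3. Against sham 2 alone the log2 fold change was 1.44 (edgeR adjusted p 0.394).

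Tfrc, on the minus strand of chromosome 11 (71397383 to 71419223), encodes the transferrin receptor, the main entry for iron bound to transferrin. Its FPKM was 12.2, 14.5 and 13.7 in sham and 5.29, 11.7 and 5.53 in ischemia. All ischemia values lay below all sham values, but ischemia 2 lay close to sham 1. The sham mean was 13.4 ± 1.19 and the ischemia mean 7.50 ± 3.62 (SD, n = 3 each). Ischemia differed from sham by a log2 fold change of -0.97 ± 0.32 (SE; 95% interval -1.75 to -0.19), with an edgeR adjusted p of 0.105, so Tfrc did not pass. Without ischemia 2 it was -1.37 (edgeR adjusted p 0.0421), and without sham 1 it was -1.09 (edgeR adjusted p 0.200). It was -1.02 without sham 3 (edgeR adjusted p 0.205), -0.80 without sham 2 (0.212) or without ischemia 1 (0.136), and -0.83 without ischemia 3 (0.269). With DESeq2, which called 27.3% of all tested genes, the log2 fold change was -1.005 and the adjusted p 0.0299.

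The 250 bases before the Tfrc start site are shown because this promoter is a known target of the hypoxia-inducible factors. The sequence is from RefSeq, build GRCr8, chr11:81690319-81690568 on the minus strand, and these coordinates differ from those of the table. Capitals mark matches on either strand to ACGTG or GCGTG, the core that these factors bind, and to GGCGCC, an element through which bone morphogenetic proteins act on hepcidin.
Tfrc promoter: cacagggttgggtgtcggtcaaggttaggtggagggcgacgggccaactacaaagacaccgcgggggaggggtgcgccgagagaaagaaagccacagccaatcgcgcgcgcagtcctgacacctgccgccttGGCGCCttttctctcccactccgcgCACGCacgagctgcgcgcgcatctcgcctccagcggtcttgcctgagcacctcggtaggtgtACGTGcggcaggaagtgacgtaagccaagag
The match ACGTG begins 31 bases before the start site, a match to GCGTG on the other strand 93 bases before it, and GGCGCC 118 bases before it. Either core is common, since 36.7% of 33469 promoter windows of this length held one, and 8.69% held GGCGCC. Such a match is a description of the letters and not of binding. Windows were listed for 6 of the 9 genes, and in those of Ireb2 and Slc40a1 none of the searched motifs, which also included TTCNNNGAA and TGACNNNGC, was found.

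Slc11a2, on the minus strand of chromosome 7 (142025815 to 142063212), encodes DMT1, which moves iron out of the endosome after transferrin has been taken up. Its FPKM was 9.13, 7.38 and 9.33 in sham and 10.6, 8.57 and 8.27 in ischemia, and the groups overlapped. Its log2 fold change was 0.0079 ± 0.17 (SE) with a 95% interval of -0.40 to 0.41 and an edgeR adjusted p of 0.978. Its sign changed with the scaling (-0.020 with median-ratio scaling), and the interval still allows a rise of up to 1.33-fold. The 3 import genes thus gave unlike values, with Slc39a14 higher, Tfrc lower without passing, and Slc11a2 near 0.

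Fth1, on the plus strand of chromosome 1 (226030938 to 226033228), encodes the heavy chain of ferritin, which oxidises iron for storage. It had the highest FPKM of the 9 genes in both groups, at 1752, 1860 and 1830 in sham and 2181, 4220 and 1864 in ischemia. Sham samples were close together, ischemia 2 was far above the rest, and ischemia 3 barely exceeded sham. In edgeR this gave a log2 fold change of 0.48 ± 0.34 (SE; 95% interval -0.35 to 1.30; edgeR adjusted p 0.357), and without ischemia 2 it was 0.10. RefSeq lists 6 further loci named after Fth1, among which reads of near-identical sequence could have been split or lost.

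Ferritin light chain was spread over 5 rows of the table, and the row named Ftl1 held a small part of its counts. That row lies on the plus strand of chromosome 5 (152325871 to 152326778), between Cd52 and Ubxn11, where RefSeq GRCr8 places LOC100360087, with Ftl1 as a synonym. The row named LOC100360087 lies on the minus strand of chromosome 1 (101448346 to 101449829), between Gys1 and Bax, where RefSeq GRCr8 places Ftl1. Names and neighbours thus point to the chromosome 1 row as the locus that RefSeq calls Ftl1. It took between 79.7% and 84.2% of all light chain counts in a sample, against 10.04% to 17.6% for the row named Ftl1. RefSeq lists 21 further loci named after Ftl1, and the values of each row are uncertain for the same reason as for Fth1.

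The FPKM of the row named Ftl1 was 32.1, 26.1 and 74.0 in sham, against 79.0, 165.6 and 65.0 in ischemia. The groups overlapped, because sham 3 lay above ischemia 3. For this row the log2 fold change was 1.15 ± 0.46 (SE; 95% interval 0.046 to 2.25) with an edgeR adjusted p of 0.143. It was 0.70 without ischemia 2 (edgeR adjusted p 0.323) and 1.65 without sham 3 (edgeR adjusted p 0.141). For the row LOC100360087, examined after its values had been seen, the FPKM was 406.1, 344.7 and 552.5 in sham and 879.5, 1806 and 892.8 in ischemia. Here the groups did not overlap, and the log2 fold change was 1.36 ± 0.32 (SE; 95% interval 0.60 to 2.12), just short of the threshold with an edgeR adjusted p of 0.0520. Another light chain row, LOC100362384 on chromosome 13, passed with a log2 fold change of 1.57 (edgeR adjusted p 0.0440) at a much lower FPKM of 10.7 to 16.0 in sham and 29.8 to 64.4 in ischemia. The row LOC100359668 had overlapping groups and the row RGD1561661 had no counts in any sample. With all light chain rows summed, the log2 fold change was 1.33 and the edgeR adjusted p 0.0577.

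**Figure D3:**
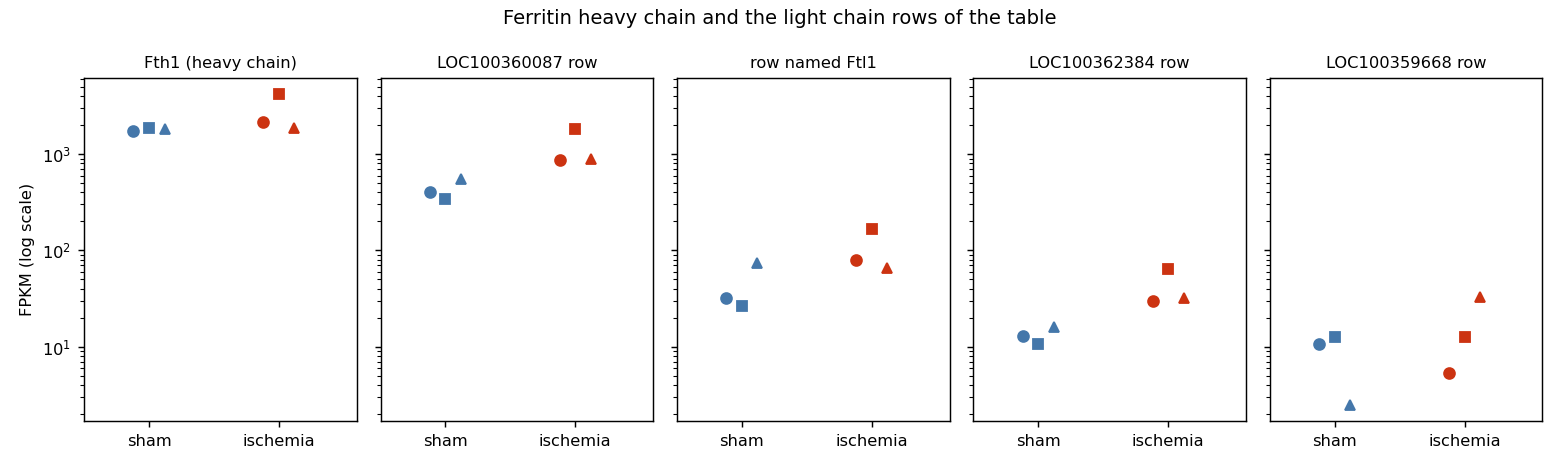
FPKM (log scale) of the ferritin heavy chain gene Fth1 and of the 4 light chain rows with counts, by sample, with sham in blue and ischemia in red and one marker shape per replicate number (circle 1, square 2, triangle 3). The row LOC100360087 carries most of the light chain signal, at 344.7 to 552.5 in sham and 879.5 to 1806 in ischemia, about 7 to 14 times the row named Ftl1 of the same sample (7.47 to 13.7).

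Ratios within a sample do not depend on how libraries are scaled. The ratio of Tfrc to Fth1 FPKM was 0.00693, 0.00779 and 0.00746 in sham, against 0.00243, 0.00277 and 0.00296 in ischemia. The ischemia samples lay well below the sham samples and close to one another, including ischemia 2, in which both genes were higher than in the other ischemia samples. The log2 difference was -1.45, and it lay between -1.51 and -1.37 when each sample was left out (exact permutation p 0.1, n = 3 per group, the smallest possible). The ratio of Ftl1 to Fth1 was 0.0183, 0.0141 and 0.0404 in sham and 0.0362, 0.0392 and 0.0349 in ischemia, and the groups overlapped (log2 difference 0.75, exact permutation p 0.4, n = 3 per group). That difference was 0.43 without sham 2 and 1.19 without sham 3. With the row LOC100360087 in its place the ratio was 0.232, 0.185 and 0.302 in sham and 0.403, 0.428 and 0.479 in ischemia, without overlap (log2 difference 0.89, exact permutation p 0.1, n = 3 per group).

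Slc40a1, on the minus strand of chromosome 9 (52820683 to 52830457), encodes ferroportin, the only known exporter of cellular iron. It was expressed at a low level, with an FPKM of 1.82, 2.47 and 2.01 in sham and 2.60, 3.30 and 2.64 in ischemia, from 201 to 357 counts. The FPKM groups did not overlap, but the TMM-scaled counts per library size (CPM) did, since sham 2 (4.42) exceeded ischemia 1 (3.84) and ischemia 3 (4.06). Its log2 fold change was 0.32 ± 0.32 (SE; 95% interval -0.44 to 1.08) with an edgeR adjusted p of 0.507. Against sham 2 alone the sign reversed (-0.10).

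Hamp, on the minus strand of chromosome 1 (89368021 to 89369960), encodes hepcidin, a hormone that is made mainly in the liver and also in the heart. Its FPKM was 178.7, 12.4 and 1171 in sham and 1926, 809.2 and 752.4 in ischemia. No other of the 9 genes varied as much within a group, since the highest sham sample was 94.5 times the lowest, while the ischemia samples were within 2.56 times of each other. Sham 3 exceeded ischemia 2 and ischemia 3, so the groups overlapped. Between the groups the log2 fold change was 1.39 ± 1.29 (SE; 95% interval -1.72 to 4.496) with an edgeR adjusted p of 0.477, and it was 3.596 without sham 3 (edgeR adjusted p 0.175). It was 0.81 without sham 2 and 0.78 without ischemia 1, and against sham 2 alone it was 6.25 (edgeR adjusted p 0.394). The sum of 5 hepatocyte genes was 17.0 to 26.0 FPKM in sham and 6.33 to 15.2 in ischemia, most of it Ttr (6.32 to 24.8 over all samples), while Alb was at or below 3.07. The atrial sums of sham 1 and sham 3 were 48344 and 39345, beside 178.7 and 1171 FPKM of Hamp. Among the 3 samples with the lowest atrial sums, Hamp was 12.4 in sham 2 and 809.2 and 752.4 in ischemia 2 and ischemia 3. The part of atrial or liver RNA in the Hamp values was not tested.

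**Figure D4:**
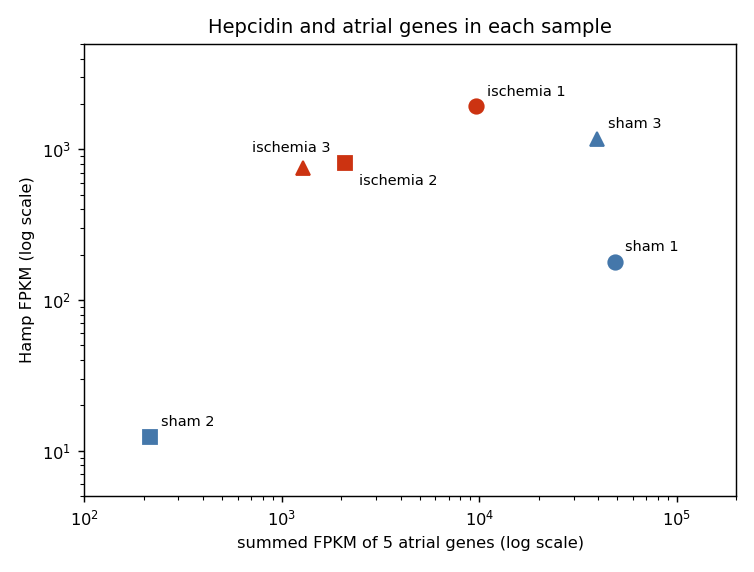
Hamp FPKM (y axis, log scale) against the summed FPKM of 5 atrial genes (x axis, log scale) in each of the 6 samples, sham in blue and ischemia in red. Sham 2 is lowest on both axes (12.4 and 215.5), while the 3 ischemia samples have between 752.4 and 1926 of Hamp over atrial sums of 1279 to 9610.

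The Hamp promoter is shown because inflammation and bone morphogenetic proteins are known to act on this gene through it. The 250 bases before the start site are from RefSeq, build GRCr8, chr1:95300272-95300521 on the minus strand, with the matches to GGCGCC and TTCNNNGAA, the STAT element, in capitals.
Hamp promoter: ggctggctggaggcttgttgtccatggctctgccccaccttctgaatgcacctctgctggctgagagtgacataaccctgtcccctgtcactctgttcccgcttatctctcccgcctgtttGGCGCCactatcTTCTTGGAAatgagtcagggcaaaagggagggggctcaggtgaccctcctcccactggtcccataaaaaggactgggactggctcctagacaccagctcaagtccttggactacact
The match GGCGCC begins 129 bases and the match TTCTTGGAA 117 bases before the start site. Of all promoter windows, 7.67% held TTCNNNGAA. The inflammatory cytokine gene Il6, which acts through STAT3, had an FPKM of at most 0.0857 in sham and of 1.90, 131.0 and 2.34 in ischemia. Its edgeR adjusted p was 0.0613. Hamp was highest in ischemia 1 (1926 FPKM) and Il6 in ischemia 2. The part of Il6 in the Hamp values was not tested.

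Ireb2, on the plus strand of chromosome 8 (59420123 to 59501118), encodes iron regulatory protein 2, which binds the hairpins of iron-related mRNAs when iron is scarce. Its FPKM was 2.21, 1.13 and 1.95 in sham, against 2.27, 6.99 and 3.34 in ischemia. The groups did not overlap, although ischemia 1 was barely above sham 1. The log2 fold change was 1.16 ± 0.42 (SE; 95% interval 0.14 to 2.19) with an edgeR adjusted p of 0.123. Without ischemia 1 it was 1.44, and the edgeR adjusted p was 0.0471. Without ischemia 2, the highest sample, it was 0.67 (edgeR adjusted p 0.256). With DESeq2 the adjusted p was 0.0493.

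Gpx4, on the minus strand of chromosome 7 (12516352 to 12519154), encodes the glutathione peroxidase that reduces lipid peroxides in membranes and thereby holds back ferroptosis. Its FPKM was 92.5, 159.0 and 139.7 in sham, against 178.6, 67.4 and 137.0 in ischemia. The highest and the lowest value both belonged to ischemia samples, and the groups overlapped. Its log2 fold change was -0.13 ± 0.45 (SE) with a 95% interval of -1.22 to 0.97 and an edgeR adjusted p of 0.863, an interval of 0.429 to 1.96 times the sham level. The sign was positive without sham 2 (0.18) or without ischemia 2 (0.20).

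Ordered by mean FPKM in sham, the genes ran from Fth1 (1814) over Hamp (454.0), Gpx4 (130.4), Ftl1 (44.1), Slc39a14 (13.9), Tfrc (13.4), Slc11a2 (8.61) and Slc40a1 (2.10) to Ireb2 (1.76). The neighbours Hamp and Gpx4, Slc39a14 and Tfrc, and Slc40a1 and Ireb2 overlapped. In ischemia the order ran Fth1 (2755), Hamp (1163), Gpx4 (127.7), Ftl1 (103.2), Slc39a14 (45.9), Slc11a2 (9.14), Tfrc (7.50), Ireb2 (4.20) and Slc40a1 (2.85). Here the neighbours Fth1 and Hamp, Gpx4 and Ftl1, Slc11a2 and Tfrc, Tfrc and Ireb2, and Ireb2 and Slc40a1 overlapped. Slc39a14 and Tfrc, which overlapped in sham, were separated in ischemia. Both orders use the row named Ftl1. By its mean FPKM the row LOC100360087 would stand between Hamp and Gpx4 in sham (434.5) and between Fth1 and Hamp in ischemia (1193).

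A list of 78 other genes of iron handling was examined in the same fit, and 70 of them, in 71 rows, were tested. Of the 71 rows 7 were higher and 1 was lower at an adjusted p under 0.05 (9.86% and 1.41%), against 5.18% and 1.53% of all genes. The median log2 fold change was -0.061, with 33 rows above 0, where 49.9% of all tested genes lay above 0. The neutrophil genes were higher in the same ischemia samples, and the macrophage gene Cd163 is itself on the list. Without any 1 of the 3 sham samples or without ischemia 3, edgeR called 0 of the 71 rows and 0 of all genes. Without ischemia 1 it called 22 rows (14 higher, 8 lower) and 18.7% of all genes, and without ischemia 2 it called 5 rows (all higher) and 4.09% of all genes. The split by direction also moved. DESeq2 called 16 rows higher and 7 lower, against 2071 and 1742 of the 13964 tested genes. With limma at a pseudocount of 0.1 it was 8 and 0, against 850 and 262 of all genes. At a pseudocount of 1 it was 6 and 0, against 657 and 209. Among the 8 genes, Hmox1, Lcn2 and Gch1 passed in every fit that called any of the 71 rows, and Slc3a2 in all of these but total-count scaling. The stricter rule (log2 fold change beyond 2, unadjusted p under 0.01) was met by 6 of the 71 rows and 4.65% of all tested genes. These rows were Gch1, Hmox1, Hp, Il6, Lcn2 and Steap1, so Slc3a2, Cd163, Id1 and Bmp6 did not meet it. Hp, Cd163, Id1 and Bmp6 were each lost without an expression filter, with total-count scaling and without ischemia 2. With limma Bmp6 was lost at both pseudocounts and Hp and Cd163 at a pseudocount of 1, and with upper-quartile scaling Hp and Id1 were lost. Cd163 was not tested at a mean FPKM of at least 5. In the reported fit 25 of the 71 rows had an unadjusted p under 0.05, where 32.4% of all tested genes did. Between 18 and 23 rows had such a p without each of the 4 samples whose removal left 0 calls. In these 4 fits 3020 to 3809 of the 13964 tested genes did so.

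Among 11 tested genes of heme and hemoglobin salvage, 3 rose and the others did not pass, where 5.18% of all tested genes passed as higher. Of the 3 calls, those of Hp and Cd163 were among the ones lost in other fits. Hmox1, the heme oxygenase that frees iron from heme, had an FPKM of 5.27, 5.27 and 7.93 in sham and 74.1, 323.6 and 77.7 in ischemia (log2 fold change 4.55 ± 0.66, edgeR adjusted p 0.0292). Every ischemia sample was far above sham, and ischemia 2 stood above the other two. Hp, which encodes haptoglobin, the carrier of free hemoglobin, rose by 3.20 ± 0.70 on the log2 scale (edgeR adjusted p 0.0494), with an FPKM of 0.849 to 1.84 in sham and 3.52 to 23.4 in ischemia. Cd163, its receptor on macrophages, rose by 1.40 ± 0.28 on the log2 scale (edgeR adjusted p 0.0445), with an FPKM of 1.596 to 3.59 in sham and 5.22 to 7.71 in ischemia. Flvcr2 had the lowest log2 fold change of this group (-1.24, edgeR adjusted p 0.0583).

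Of 9 further tested uptake genes 1 passed, Lcn2, where 5.18% of all tested genes passed as higher. Lcn2 encodes lipocalin 2, a neutrophil protein that binds iron-carrying siderophores. Its FPKM was 4.11, 11.7 and 5.20 in sham and 952.1, 137.1 and 337.2 in ischemia (log2 fold change 5.94 ± 0.99, edgeR adjusted p 0.0351). The highest value lay in ischemia 1, the library in which the airway gene Scgb1a1 reached 394.4 FPKM, against at most 15.1 in the others. In ischemia 3, with 337.2 of Lcn2, Scgb1a1 was at 0.187. The sum of the neutrophil genes was highest in ischemia 2 (3865), where Lcn2 was the lowest of the ischemia samples. The part of airway or neutrophil RNA in the Lcn2 values was not tested. Steap1 had the highest log2 fold change of the further uptake genes (5.99, edgeR adjusted p 0.0684), from 0, 17 and 0 counts in sham and 235 to 768 in ischemia. Cybrd1, a metal reductase, had the lowest (-1.57, edgeR adjusted p 0.0608).

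Of 7 tested genes that control hepcidin, Id1 rose and Bmp6 fell, where 5.18% of all tested genes passed as higher and 1.53% as lower. Both calls were among the ones lost in other fits. Bmp6, the bone morphogenetic protein that induces hepcidin in the liver, had an FPKM of 14.8, 9.12 and 22.8 in sham and 5.27, 5.90 and 2.66 in ischemia (log2 fold change -1.82 ± 0.38, edgeR adjusted p 0.0459). Id1, a target of the same signal, moved the other way, from 31.0, 37.1 and 57.9 to 87.9, 121.2 and 99.4 (log2 fold change 1.20 ± 0.26, edgeR adjusted p 0.0478). Il6 had the highest log2 fold change of the group (9.25, edgeR adjusted p 0.0613), with by far the most reads in ischemia 2, and Hjv, the bone morphogenetic protein coreceptor, the lowest (-2.02, edgeR adjusted p 0.137).

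Of 15 tested genes of ferroptosis and lipid peroxidation, Slc3a2 and Gch1 rose, and 11 of the 15 had log2 fold changes above 0, against 5.18% and 49.9% of all tested genes. Slc3a2, the heavy chain of the cystine importer, had an FPKM of 38.2, 29.0 and 48.1 in sham and 82.8, 117.6 and 77.9 in ischemia (log2 fold change 1.19 ± 0.21, edgeR adjusted p 0.0365). Gch1, which starts the synthesis of the antioxidant tetrahydrobiopterin, had an FPKM of 1.31, 1.603 and 1.20 in sham and 7.06, 20.6 and 8.27 in ischemia (log2 fold change 2.98 ± 0.47, edgeR adjusted p 0.0327). Ptgs2, an enzyme of prostaglandin synthesis often read as a sign of ferroptosis, had the highest log2 fold change (4.59, edgeR adjusted p 0.0750), with 22.5 FPKM in ischemia 2, while ischemia 1 and ischemia 3 had 1.37 and 1.87. Aifm2, which keeps coenzyme Q reduced, had the lowest (-1.04, edgeR adjusted p 0.172). Slc7a11, the partner of Slc3a2 in the cystine importer, was below the filter, with 8, 0 and 0 counts in sham and 47, 705 and 79 in ischemia.

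Of 23 tested rows for mitochondrial iron, iron-sulfur clusters and heme synthesis 0 passed in edgeR, 3 had an unadjusted p under 0.05 and 3 passed in DESeq2 (2 higher, 1 lower), where 32.4% and 27.3% of all genes did so. Of the 23, 17 had log2 fold changes below 0, with a median of -0.43, while 49.9% of all tested genes lay above 0 and their median was -0.0015. Isca1, an iron-sulfur assembly protein, was lowest (-0.98, edgeR adjusted p 0.114), and Slc25a37, the mitochondrial iron importer mitoferrin 1, was highest (1.61, edgeR adjusted p 0.0672). Of the 8 ventricular cardiomyocyte genes, 4 (Myh6, Actc1, Ryr2 and Mybpc3) were lower in every ischemia sample and the other 4 overlapped, with Myl2 and Myl3 higher in each ischemia sample than in sham 1 and sham 3. Their part in these values was not tested. In the remaining 3 groups edgeR also called 0 genes, with 1 of 2 export partners, 1 of 2 genes of iron chaperoning and ferritin turnover and 0 of 2 sensors at an unadjusted p under 0.05 (DESeq2 called the first 2, Heph and Ncoa4). The export partners Heph and Cp had log2 fold changes of -0.78 and -0.44, Ncoa4, the receptor for ferritin turnover, and the iron chaperone Pcbp2 of -0.38 and -0.13, and the sensors Aco1 and Fbxl5 of -0.58 and 0.84, with edgeR adjusted p-values from 0.0643 for Heph to 0.617 for Pcbp2.

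**Figure D5:**
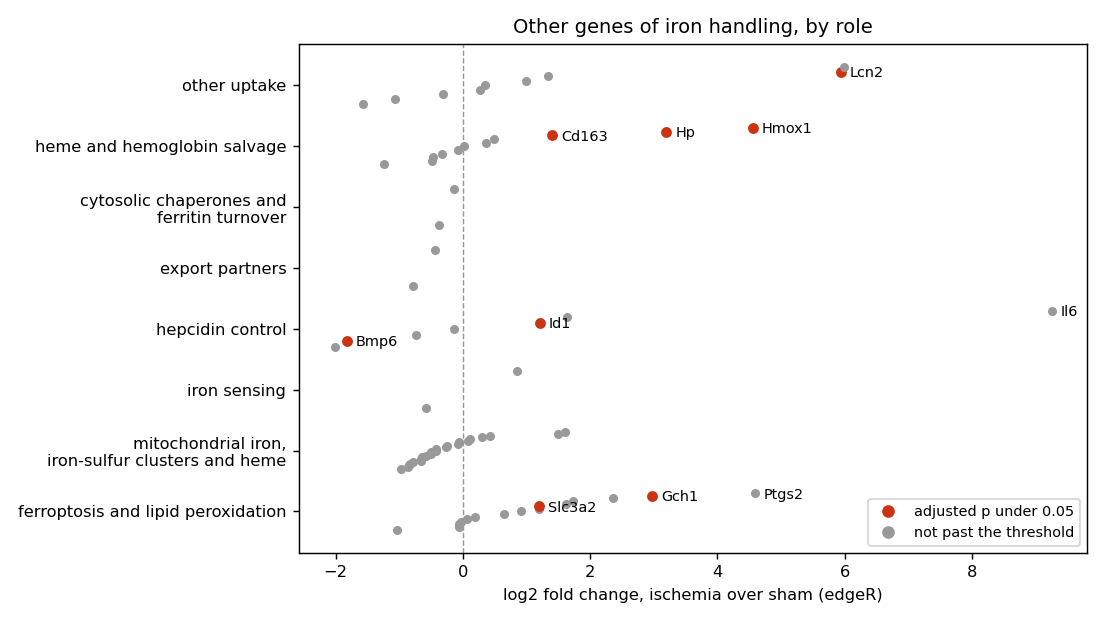
Log2 fold change of ischemia over sham (edgeR, x axis) for the 71 tested rows of other iron genes, grouped by role on the y axis, with one point per row, red for those past an adjusted p of 0.05 and grey for the others, of which Il6 and Ptgs2 are named. The 7 higher rows lie between 1.19 (Slc3a2) and 5.94 (Lcn2), Bmp6 is the only lower one (-1.82), and the mitochondrial group lies mostly left of 0.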

How the data were processed

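Total RNA of rat myocardium (3 sham, 3 ischemia samples) had been sequenced by the authors with a stranded kit. Per the labels, STAR and HTSeq were used; their versions, the genome build and the annotation are not given in the sources used here. The deposited table held raw read counts and FPKM values that the authors had computed from them, with genes without reads listed at 0.0001. Tested were genes that reached 0.5 FPKM on average (13964 of 32623). Counts were scaled by TMM and compared with the quasi-likelihood test of edgeR 4.0.16 in R 4.3.3, without covariates, two-sided, with Benjamini-Hochberg adjustment over all tested genes. Intervals of fold changes are 95% intervals from the moderated t distribution of that fit. Single FPKM values and ratios were compared with exact two-sided permutation tests. Nothing in the labels says whether samples were separate animals, so p-values measure the spread between these samples.

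The 9 genes and all lists were chosen with earlier results of these data known. Named were the 9 genes, listed genes past the threshold, and the highest and lowest of each role; the rows LOC100360087 and LOC100362384 and the counts of Slc7a11 were added after their values were seen. For Tfrc, Fth1 and Slc40a1 the 3 genes with the most similar pattern were also taken. Of the 78 listed genes Pcbp1 was not analysed here, and 7 were under the filter. Alternatives were DESeq2 1.42.0, limma 3.58.1 on log2(FPKM + 0.1) and log2(FPKM + 1), 2 other filters, 3 other scalings, removal of the mitochondrial genome, summed repeated symbols, the replicate block, each sample left out, and a call rule of a log2 fold change beyond 2 with p under 0.01. After seeing the data, light chain rows were summed or exchanged, and sham 2 was set alone against ischemia. Figures were drawn with matplotlib 3.10.9.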

Additional observations from a re-analysis of the deposited data

How the results depend on the processing

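The number of the 9 genes past the threshold was 1 in the reported fit, 3 with DESeq2 (Slc39a14 and Ireb2 higher, Tfrc lower), 0 with the replicate number as a block, 0 at a log2 fold change beyond 2 with p under 0.01, 0 with sham 2 alone against ischemia (chosen after seeing the data), and 0 to 2 when each sample was left out (1 to 4 at an unadjusted p under 0.05). The number of other iron genes was 8 in the reported fit, 23 with DESeq2, 4 without an expression filter, 3 with total-count scaling, 0 with the replicate block, 0 with sham 2 alone, and 0 to 22 when each sample was left out. Unadjusted p was under 0.05 for 2 of the 9 and 20 of the 71 rows with the replicate block, where 3349 of 13964 tested genes did so. Same-numbered samples were not more alike than others. The correlations of their deviations from the group mean were -0.056, -0.094 and -0.196, with a mean of -0.12 against 0.055 for different numbers. By this measure 0 of 6 samples correlated best with its own number. With 3 samples per group these values cannot decide whether samples were paired, and the labels do not state it. With the replicate block Slc39a14 was 1.63 (edgeR adjusted p 0.0943), the log2 difference of the Tfrc to Fth1 ratio -1.45 and that of the Ftl1 to Fth1 ratio 0.75. The log2 fold change of Slc11a2 reversed to -0.020 with DESeq2, median-ratio or upper-quartile scaling, -0.041 at a mean FPKM of at least 5, -0.0033 with the replicate block and -0.13 without ischemia 1, and ranged from -0.13 to 0.093 when each sample was left out. That of Gpx4 reversed to 0.18 without sham 2 and 0.20 without ischemia 2, in a range of -0.45 to 0.20. That of Slc40a1 reversed to -0.10 with sham 2 alone. The other 6 genes and both ratios kept their direction wherever they were computed; at a mean FPKM of at least 5 Slc40a1 and Ireb2 were not tested. Slc39a14 ranged from 1.44 to 1.74, Tfrc from -1.37 to -0.80, Ireb2 from 0.67 to 1.56, Ftl1 from 0.70 to 1.65, Fth1 from 0.10 to 0.66 and Hamp from 0.78 to 6.25 (3.06 with the replicate block and 2.94 with limma). The cause of the lost calls was not tested. Over all genes the number of calls moved from 937 to 3813 with DESeq2, 586 without a filter, 592 with total-count scaling, 2605 and 571 without ischemia 1 and ischemia 2, and 0 with the replicate block, with sham 2 alone or without any 1 of the other samples, where 1707 to 3809 genes had an unadjusted p under 0.05.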

Other observations

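The genes whose log2 CPM (counts scaled to library size) over the 6 samples were most like those of Tfrc were Afdn, Atp23 and Hmbox1, with Pearson correlations of 0.993, 0.988 and 0.984. For Fth1 they were Samhd1, Msl1 and Ifnar2, with 0.989, 0.988 and 0.988, and for Slc40a1 they were Nphp4, Smagp and Nova2, with 0.992, 0.989 and 0.985. The 6 points share the 2 groups and the scaling of the libraries, and 16, 24 and 43 named genes had a correlation above 0.95 with Tfrc, Fth1 and Slc40a1. Fth1 and Tfrc themselves had a correlation of 0.033. That value is a description of these samples.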
